A study of Mus musculus with 15 samples.

Results

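Stem cell identity genes are genes whose products mark or maintain hematopoietic stem cells, and the 10 taken here were Hlf, Mecom, Meis1, Mllt3, Procr, Cd34, Slamf1, Ly6a, Fgd5 and Ctnnal1. They are a list of names with no threshold on a measured value, taken from 45232 gene IDs in the count table, and all 10 were among the 17834 genes that passed the filter on low counts and were tested. RNA sequencing covered 15 libraries of LSK cells, the lineage-negative, Sca-1-positive and c-Kit-positive fraction of mouse bone marrow that holds stem cells and multipotent progenitors. The groups were WT, vehicle, AG221, Rux and combo, with 3 libraries in each.

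The 4 groups other than WT all carried both a Jak2 V617F and an Idh2 R140Q allele, switched on by Mx1-Cre, a recombinase that interferon or polyI:polyC induces in blood cells and in some other tissues. These mutant cells came from C57BL/6 donors with the CD45.2 form of the leukocyte antigen CD45 and were mixed with CD45.1 WT marrow before transplant into lethally irradiated CD45.1 hosts, and CD45.2 LSK cells were sorted. Mice were given the solvent, the inhibitor of mutant IDH2 AG221 at 40 mg/kg, the JAK1 and JAK2 inhibitor ruxolitinib at 60 mg/kg, or both by mouth, 2 times a day for 21 to 28 days, with the last dose about 1.5 h before sacrifice. The methods give 40 mg/kg as well as a higher dose of AG221, and the dose here is that of the labels. Whether the WT cells also came from transplanted mice is not given in the labels, nor whether a library was made from 1 mouse or from pooled cells, so p-values measure the spread between these libraries, which may be technical in part.

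Hematopoietic stem cells sit at the top of the LSK gate and are set apart from the more numerous multipotent progenitors by a small transcription programme and a few surface proteins. HLF, MECOM (also called EVI1) and MEIS1 are transcription factors needed for stem cell maintenance, and MLLT3 (AF9) is a reader of acylated histones in the elongation machinery that supports self-renewal. EPCR (Procr) and CD150 (Slamf1) are surface proteins used to isolate stem cells, CD34 is low on adult mouse long-term stem cells and higher on progenitors, and Ly6a encodes Sca-1, an interferon-responsive antigen that is itself part of the LSK gate. Fgd5, an exchange factor for CDC42, and Ctnnal1 (alpha-catulin) have served as stem cell reporter genes.

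Each library held between 18836625 and 32174287 counts in genes, with a median of 25545779, and 3 counts, taken as the detection floor, equalled 0.0957 to 0.157 CPM (counts per 1000000 counts of the library after scaling by TMM factors). No member fell to the floor in any library, and the lowest member count was 13, for Fgd5 in 1 AG221 library. Several features of the libraries moved with the groups. Replicate names began with A for vehicle, AG221 and Rux and with B for combo and WT, and the meaning of the letter is not given in the sources used here. The 24 immediate early and dissociation genes summed to between 4737 and 16767 CPM in the A libraries, between 982 and 1645 CPM in combo and between 1101 and 1405 CPM in WT. B and plasma cell markers (14 genes) summed to between 3599 and 11150.5 CPM in WT and to no more than 802 CPM in any mutant library. Xist averaged 481 ± 28.2 CPM (SD, n = 3) in WT and at most 10.96 CPM in a mutant group, while Ddx3y on the Y chromosome averaged 0.0335 CPM in WT and at least 134 CPM in each mutant group, so sex and genotype coincided. The part of these differences in the results that follow was not tested, and letter and treatment cannot be told apart in vehicle, AG221 or Rux against WT or in any comparison of combo with vehicle, AG221 or Rux. The 11 lineage genes whose antigens the sort removes summed to 62.9 to 135 CPM, and Kit, which encodes c-Kit, was present at 740 to 1552 CPM.

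The 4 promoters printed here belong to the members called between vehicle and WT, Hlf, Fgd5 and Procr, which were lower, and Slamf1, which was higher. RefSeq promoters were found for 9 of the 10 members, and each run is the 250 bases before the annotated start, on the gene's own strand in build GRCm38.p6. The windows lay at chr11:90390918-90391167 (minus strand) for Hlf, chr6:91978715-91978964 (plus) for Fgd5, chr2:155750967-155751216 (plus) for Procr and chr1:171766882-171767131 (plus) for Slamf1. Capitals mark letters that match 1 of 6 motifs, searched on both strands. The GATA motif was read as AGATAA, as well as with a first T (TGATAA) or a last G (AGATAG), and with both changes together it was read as TGATAG. The ETS motif was read as CCGGAA, or in its other common form as AGGAAG. For RUNX factors the letters searched were TGTGGT, and in addition the variant TGCGGT. The MEIS motif was taken to be TGACAG. The STAT motif was searched as TTCNNNGAA, where N is any base. The letters of the AP-1 motif were TGANTCA.
Hlf: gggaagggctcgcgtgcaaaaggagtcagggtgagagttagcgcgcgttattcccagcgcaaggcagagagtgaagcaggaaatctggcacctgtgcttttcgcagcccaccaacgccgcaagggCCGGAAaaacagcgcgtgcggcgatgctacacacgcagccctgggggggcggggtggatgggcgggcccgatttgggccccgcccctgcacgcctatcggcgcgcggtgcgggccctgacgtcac
Fgd5: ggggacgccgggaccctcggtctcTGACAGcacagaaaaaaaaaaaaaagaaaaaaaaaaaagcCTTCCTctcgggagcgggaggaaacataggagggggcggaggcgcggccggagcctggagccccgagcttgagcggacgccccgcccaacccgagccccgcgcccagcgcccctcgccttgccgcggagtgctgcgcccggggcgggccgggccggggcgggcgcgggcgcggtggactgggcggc
Procr: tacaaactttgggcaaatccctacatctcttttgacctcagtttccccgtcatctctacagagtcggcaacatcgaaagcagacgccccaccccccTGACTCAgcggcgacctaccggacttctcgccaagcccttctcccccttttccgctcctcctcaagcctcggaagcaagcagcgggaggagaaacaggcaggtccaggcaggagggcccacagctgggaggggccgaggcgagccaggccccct
Slamf1: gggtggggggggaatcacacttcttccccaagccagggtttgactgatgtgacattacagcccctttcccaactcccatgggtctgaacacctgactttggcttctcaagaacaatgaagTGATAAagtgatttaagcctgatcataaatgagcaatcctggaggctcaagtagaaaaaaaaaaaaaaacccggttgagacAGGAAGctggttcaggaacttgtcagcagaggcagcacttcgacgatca
The Hlf window held 1 ETS match, 125 bases before the start, and the Fgd5 window 1 ETS match at 186 and 1 MEIS match at 226 bases. The Procr window held 1 AP-1 match at 154 bases, and the Slamf1 window 1 GATA match at 130 and 1 ETS match at 49 bases. No marked matches overlapped. Across 32851 mouse promoter windows of this length, ETS letters were present in 38.2%, GATA letters in 26.5%, RUNX letters in 18.6%, MEIS letters in 15.9%, STAT letters in 7.02% and AP-1 letters in 6.75%, so matches of this kind are common and none is evidence of binding. The windows of the 3 lower genes had a GC content of 67.2% for Hlf, 71.6% for Fgd5 and 61.6% for Procr, against 47.2% for Slamf1.

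Per length of exon, Cd34 was the most abundant member in WT LSK cells at 144 ± 6.82 RPKM (CPM divided by the exon length in kilobases), followed by Ly6a at 59.0 ± 8.78 RPKM. Meis1 at 41.8 ± 5.22 RPKM and Hlf at 41.6 ± 7.79 RPKM overlapped between libraries. Procr stood at 21.1 ± 2.22 and Mecom at 9.58 ± 1.78 RPKM, while Mllt3, Ctnnal1, Fgd5 and Slamf1 lay between 4.78 and 2.16 RPKM with each overlapping its neighbour (all SD, n = 3). In vehicle, Hlf had moved down to 8.91 ± 6.02 RPKM, below Meis1 at 38.4 ± 11.6 RPKM without overlap, and Fgd5 was last at 0.548 ± 0.597 RPKM. Reads could be shared where exons of other genes overlap those of a member, which was the case for 8.51% of Meis1 exon bases on the opposite strand and 9.77% on the same strand, 2.03% of Cd34 and 0.652% of Mecom bases on the opposite strand, and none of the other 7. The strand setting of the counting is not stated.

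The first question was how the mutant cells differed from WT cells when given vehicle. Of the stem cell genes, Hlf fell 4.66-fold, Fgd5 4.91-fold and Procr 2.52-fold, and Slamf1 rose 2.81-fold, while Mecom, Meis1, Mllt3, Cd34, Ly6a and Ctnnal1 were not called. The 4 called members made up 40% of the 10, beside 33.3% of all tested genes called in this comparison, so the number of members called was close to the background and the individual genes carry the description. Those lower were 3 of 10, beside 17.9% of all genes, 5 members had an unadjusted p under 0.05, beside 46.1%, and 6 had groups that did not overlap, beside 56.9%. The median log2 fold change of the members was -0.43 and that of all genes -0.09. In bulk LSK cells, fewer cells of a type and less RNA per cell cannot be told apart.

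Hlf stood at 319, 295 and 219 CPM in the WT libraries B28, B30 and B31 and at 50.8, 103 and 24.5 CPM in the vehicle libraries A1, A3 and A4. Every vehicle library lay below every WT library. The log2 fold change was -2.22 ± 0.425 (SE), with an adjusted p of 0.00431 (edgeR quasi-likelihood test with Benjamini-Hochberg adjustment over all tested genes, as for each adjusted p given without another tool). This call held when any single library was left out, with adjusted p-values up to 0.0225.

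Mecom stood at 142, 118 and 97.5 CPM in WT and at 77.0, 121 and 24.4 CPM in vehicle. The groups overlapped through vehicle A3, and the log2 fold change was -0.68 ± 0.407 with an adjusted p of 0.203. With 1 library left out it ran from -1.21 without A3, with an adjusted p of 0.0383, to -0.25 without A4, with an adjusted p of 0.522, and was called in 1 of 6 such fits. Meis1, at 503, 406 and 411 CPM in WT and 492, 458 and 265 CPM in vehicle, gave a log2 fold change of -0.12 ± 0.228 with a 95% interval from -0.61 to 0.37. Mllt3 ran from 49.8 to 65.6 CPM in WT and from 38.7 to 42.7 CPM in vehicle without overlap, yet its log2 fold change of -0.49 ± 0.308 had an adjusted p of 0.225.

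Among the surface proteins, Procr was at 43.1, 38.3 and 47.3 CPM in WT and at 17.03, 30.3 and 3.67 CPM in vehicle. All vehicle libraries were lower than WT, but they spread 8.25-fold among themselves. The log2 fold change of -1.33 ± 0.486 had an adjusted p of 0.0488, just inside the threshold of 0.05. It was not called without B28, B30, B31, A1 or A4, with adjusted p-values of 0.0942, 0.0986, 0.0992, 0.112 and 0.0519, and the log2 fold change ran from -2.03 without A3 to -0.84 without A4. It was also not called with the compared groups alone (adjusted p 0.105) or with a robust estimate of the spread (0.0505).

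Slamf1 moved the other way, from 16.9, 11.6 and 11.5 CPM in WT to 36.3, 53.7 and 22.1 CPM in vehicle. Each vehicle library exceeded each WT library, and the log2 fold change was 1.49 ± 0.375 with an adjusted p of 0.0122, which rose to 0.0593 without B30. Cd34 was at 1019, 1025 and 1108 CPM in WT and 1000.1, 735 and 706 CPM in vehicle, a log2 fold change of -0.37 ± 0.171 with an adjusted p of 0.107. The highest vehicle library lay just below the lowest WT library. Ly6a had the widest spread of all members in vehicle by the ratio of highest to lowest library (12.7-fold), although not by SD over mean. It was at 166, 71.9 and 13.1 CPM beside 59.9, 72.5 and 81.0 CPM in WT. Its log2 fold change of 0.23 ± 0.538 was not called and turned to -0.72 without A1, and since Sca-1 was a sort antigen its level is no free readout.

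Fgd5, the lowest member in each mutant group, was at 18.9, 19.5 and 12.8 CPM in WT and 1.96, 7.72 and 0.671 CPM in vehicle, the last from 17 counts. The groups did not overlap, and the log2 fold change was -2.30 ± 0.755 with an adjusted p of 0.0337. It was not called without B28, B30, A1 or A4, with adjusted p-values of 0.0721, 0.0951, 0.109 and 0.0844, and the log2 fold change ran from -3.67 without A3 to -1.79 without A4. Ctnnal1, at 33.3, 23.0 and 21.6 CPM in WT and 29.9, 43.5 and 25.5 CPM in vehicle, differed by a log2 fold change of 0.35 ± 0.254 and was not called.

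**Figure D1:**
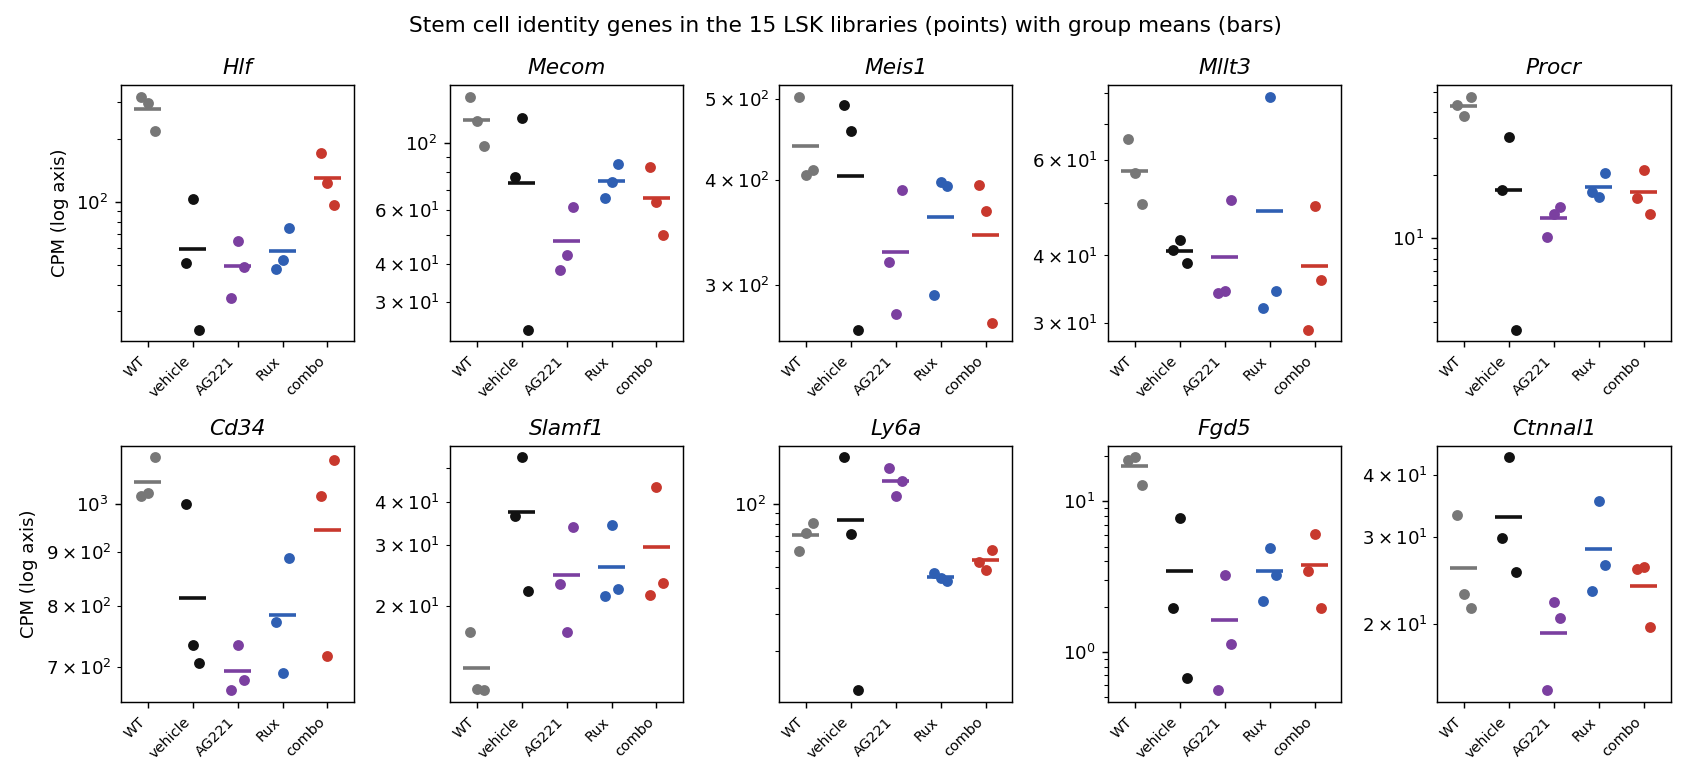
Levels of the 10 stem cell identity genes in CPM on a log axis, with 1 panel per gene, 1 point per library and a bar at the mean of each group of 3. Hlf, Fgd5 and Procr are higher in every WT library than in every mutant library, and the vehicle libraries spread widest for Procr, Fgd5 and Ly6a.

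Vehicle A4 was the library with the lowest value of all 15 for Procr, Mecom, Hlf, Ly6a and Meis1. Averaged over the 10 members as log2 CPM relative to the WT mean, the vehicle libraries stood at -0.49 for A1, -0.10 for A3 and -1.73 for A4, a wider range than the -1.22 to -0.78 of AG221, the -0.95 to -0.53 of Rux or the -0.86 to -0.43 of combo. Among the vehicle libraries, A3 was the highest for Hlf, Mecom, Procr, Fgd5, Slamf1, Mllt3 and Ctnnal1. The vehicle group thus held the libraries at both ends of the member average among the mutant cells.

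With AG221, 5 of 10 members were lower than in WT and none higher, beside 50.7% of all genes called in this comparison and 28.5% called lower. An unadjusted p under 0.05 was found for 6 members, beside 58.1% of all genes, and 7 had groups that did not overlap, beside 61.3%. Hlf was at 34.5, 65.2 and 48.8 CPM in AG221 libraries A8, A9 and A10, a log2 fold change against WT of -2.49 ± 0.429 with an adjusted p of 0.000783. Fgd5 was at 0.556, 3.24 and 1.13 CPM, a log2 fold change of -3.39 ± 0.801 with an adjusted p of 0.0045, and it ran from -4.31 without A9, the highest of the 3, to -2.96 without A8. Neither gene overlapped WT. Procr (10.1, 13.1 and 14.1 CPM) fell by 1.79 on the log2 scale with an adjusted p of 0.0099.

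Mecom, at 38.1, 42.7 and 61.7 CPM, fell by 1.32 on the log2 scale against WT with an adjusted p of 0.0176, although the adjusted p was 0.0566 without B28 and 0.0735 without A8. Cd34, at 665, 735 and 680 CPM, fell by 0.60 on the log2 scale with an adjusted p of 0.0116, which became 0.0661 with offsets for GC content. Of the members not called, Slamf1 had a log2 fold change of 0.89 with an adjusted p of 0.0598. It was called in 7 of 11 other settings, and with 1 library left out it ran from 0.62 without A10, with an adjusted p of 0.225, to 1.11 without A9, with one of 0.0265. Ly6a had a log2 fold change of 0.85 with every AG221 library above WT. Meis1, Mllt3 and Ctnnal1 had log2 fold changes of -0.42, -0.53 and -0.44. All genes together had a median log2 fold change of -0.25 here, in the same direction as these values and smaller in size.

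In Rux libraries, 2 of 10 members were called lower than WT, beside 16.2% of all genes called lower and 32.3% called in either direction. An unadjusted p under 0.05 was found for 5 members, beside 45.7%, and 8 had groups that did not overlap, beside 58.1%. Hlf, at 47.8, 52.6 and 74.7 CPM in A14, A16 and A17, had a log2 fold change of -2.25 ± 0.425 with an adjusted p of 0.00391. Fgd5, at 2.17, 4.87 and 3.25 CPM, had one of -2.31 ± 0.758 with an adjusted p of 0.0341, and was not called without B28, B30, A14, A16 or A17, with adjusted p-values of 0.0742, 0.0956, 0.0968, 0.0617 and 0.0925. Procr, at 16.6, 15.7 and 20.4 CPM, lay below WT in every library, with a log2 fold change of -1.29 and an adjusted p of 0.056. It was called in 6 of 11 other settings, with adjusted p-values from 0.00538 to 0.133, and in 0 of 6 fits with 1 library left out. Slamf1 had a log2 fold change of 0.97 with an adjusted p of 0.0605 and was called in 4 of 11 other settings. The others were Mecom -0.66, Ly6a -0.67, Cd34 -0.42, Meis1 -0.28 and Mllt3 -0.25, and Ctnnal1, at 23.3, 35.4 and 26.4 CPM, overlapped WT. Mllt3 in A16 reached 78.7 CPM, above all other libraries, while A14 and A17 were at 32.03 and 34.4 CPM.

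Combo is the only mutant group whose names share their letter with WT. None of the 10 members was called against WT, beside 3.25% of all genes, while 4 members, Slamf1, Fgd5, Procr and Hlf, had an unadjusted p under 0.05 (edgeR), as did 25.4% of all genes. Groups did not overlap for 7 members, beside 41.6% of all genes. DESeq2 called 3 members, beside 11% of its genes, and limma-voom 1, beside 6.23%. Fgd5, at 3.44, 6.01 and 1.94 CPM in B24, B25 and B26, had a log2 fold change of -2.16 ± 0.753 with an adjusted p of 0.105. Procr, at 15.5, 21.1 and 13.04 CPM, had one of -1.37 ± 0.487 with an adjusted p of 0.109, and Slamf1, at 21.5, 44.0 and 23.4 CPM, one of 1.15 ± 0.373 with an adjusted p of 0.0892. These 3 genes did not overlap WT, and their 95% intervals ran from -3.78 to -0.54, from -2.42 to -0.32 and from 0.35 to 1.96, none of which includes 0, although no adjusted p passed the threshold.

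Hlf was at 172, 123 and 96.7 CPM in combo, between WT and the other mutant groups. Its log2 fold change against WT was -1.09 ± 0.411 with an adjusted p of 0.124, and no combo library reached the lowest WT library. Mecom, at 83.3, 64.1 and 49.8 CPM, gave a log2 fold change of -0.86, Mllt3 one of -0.59 and Meis1 one of -0.35, none called and each without overlap. The log2 fold changes were -0.40 for Ly6a and -0.15 for Cd34, and 2 of the 3 combo libraries had Cd34 at 1017 and 1102 CPM, inside or close to the WT range, with B25 at 716 CPM. Ctnnal1, at 25.8, 26.1 and 19.8 CPM, also overlapped WT.

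**Figure D2:**
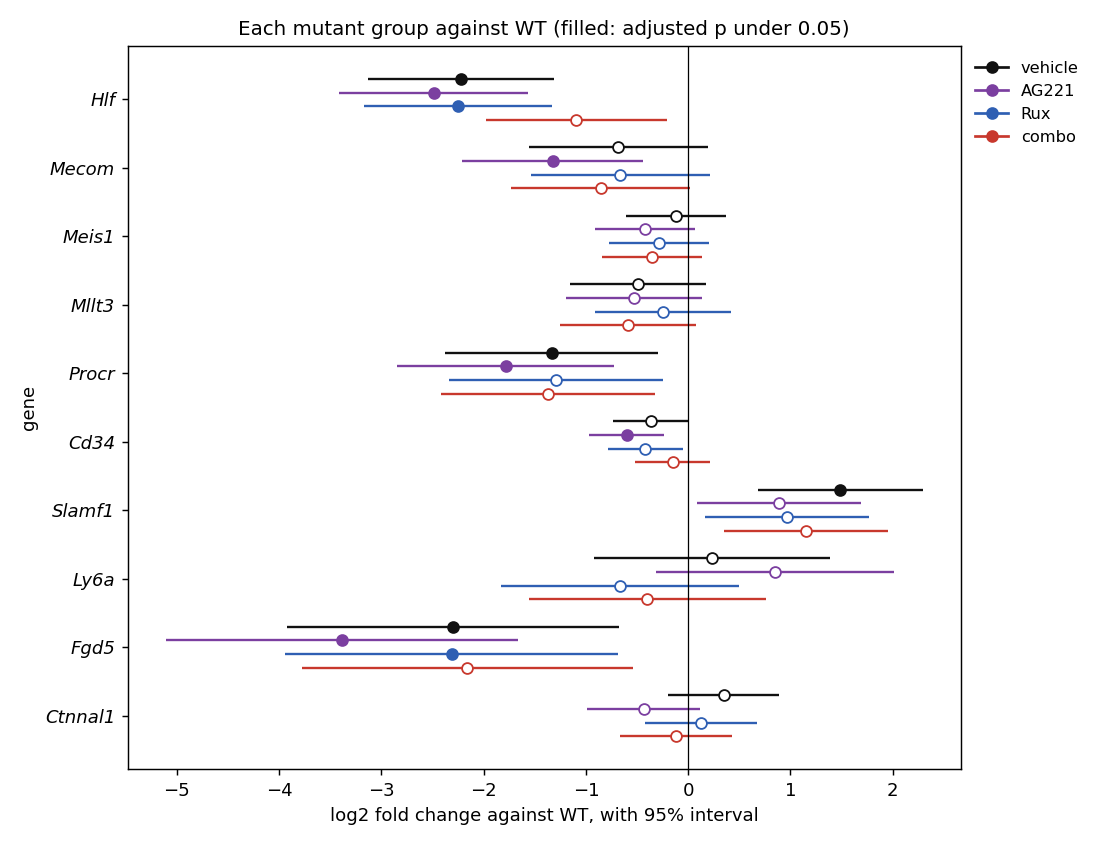
Log2 fold change of each member in the 4 mutant groups against the same 3 WT libraries (x axis), with 95% intervals and 1 row per gene, filled where called. Fgd5, Hlf and Procr lie left of 0 and Slamf1 right of 0 in all 4 groups, and no combo value is filled.

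The 4 comparisons with WT share the WT libraries, so that they are not independent of each other. Across all 12 mutant libraries taken singly, each had Hlf, Fgd5 and Procr below the lowest WT library. Slamf1 was above the highest WT library in 11 of 12, the exception being AG221 A9 at 16.9 CPM. In the single comparisons with WT, groups did not overlap for 56.9% (vehicle), 61.3% (AG221), 58.1% (Rux) and 41.6% (combo) of all genes. The share of all genes over the 12 libraries together is not given here. In order of mean CPM, WT was first for Hlf, Mecom, Procr, Fgd5, Cd34, Meis1 and Mllt3, without overlap with the next group for the first 4 of these, and last for Slamf1. Below WT, neighbouring mutant groups overlapped for each of those genes.

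The second question was what each treatment did to mutant cells. Against vehicle, no member was called with AG221, Rux or combo, beside 0.987%, 0.0168% and 12.5% of all genes, and the counts at an unadjusted p under 0.05 were 1, 0 and 1 (edgeR), beside 25.2%, 4.56% and 26.4%. Groups did not overlap for 1, 0 and 0 members, beside 20%, 8.17% and 34.7%. DESeq2 called 1, 0 and 1, beside 13.8%, 0.303% and 17.4% of its genes. The 3 comparisons share the vehicle libraries, whose spread described above enters each of them. AG221 and Rux carry the same letter as vehicle, and combo does not.

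With AG221, Ctnnal1 was at 14.7, 22.2 and 20.6 CPM beside 29.9, 43.5 and 25.5 CPM in vehicle. The groups did not overlap, and the log2 fold change was -0.78 ± 0.256 with an adjusted p of 0.0993. With 1 library left out the adjusted p ran from 0.0346 without A9 to 0.373 without A8. Fgd5 had a log2 fold change of -1.09, which ran from -2.03 without A9 to 0.30 without A3, and Mecom and Slamf1 had -0.64 and -0.60. Ly6a was at 148, 109 and 129 CPM and had one of 0.62. Over the 10 members the log2 fold changes ran from -1.09 to 0.62 with a median of -0.38. Member medians here and in the comparisons that follow are given without those over all genes, as a description only.

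With Rux, the 10 log2 fold changes against vehicle ran from -0.90 to 0.25 with a median of -0.04. Ly6a, the lowest of them, was at 47.0, 44.6 and 42.9 CPM, within the range of the vehicle libraries, and its value turned to 0.07 without A1. Slamf1 had a log2 fold change of -0.52 with a 95% interval from -1.31 to 0.27. The group means of Hlf, Procr, Mecom and Fgd5 in Rux were 58.4, 17.5, 75.1 and 3.43 CPM. They lay beside 59.5, 16.99, 74.0 and 3.45 CPM in vehicle, closer than the SD of vehicle. The 95% intervals of their log2 fold changes ran from -0.91 to 0.85, -0.99 to 1.08, -0.85 to 0.89 and -1.60 to 1.57 in that order. These leave room for a rise of more than 2-fold in Procr and for changes of more than 2-fold either way in Fgd5.

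With combo, Hlf had a mean of 130.3 ± 38.0 CPM beside 59.5 ± 40.2 CPM in vehicle (SD, n = 3). The libraries overlapped, since vehicle A3 at 103 CPM exceeded B26 at 96.7 CPM. The log2 fold change was 1.13 ± 0.412 with an adjusted p of 0.0939, and it was called in 3 of 10 other settings. With 1 library left out it ran from 0.75 without A4, with an adjusted p of 0.226, to 1.79 without A3, with one of 0.0165, and the highest adjusted p was 0.313, without B24. Over the 10 members the log2 fold changes ran from -0.63 to 1.13 with a median of -0.13. Procr had one of -0.04 and Fgd5 one of 0.14, with 95% intervals from -1.07 to 0.996 and from -1.44 to 1.72. These leave room for a fall of more than 2-fold in Procr and for changes of more than 2-fold either way in Fgd5. Ly6a had one of -0.63, which was -1.14 with an adjusted p of 0.0208 without A4 and 0.34 without A1.

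**Figure D3:**
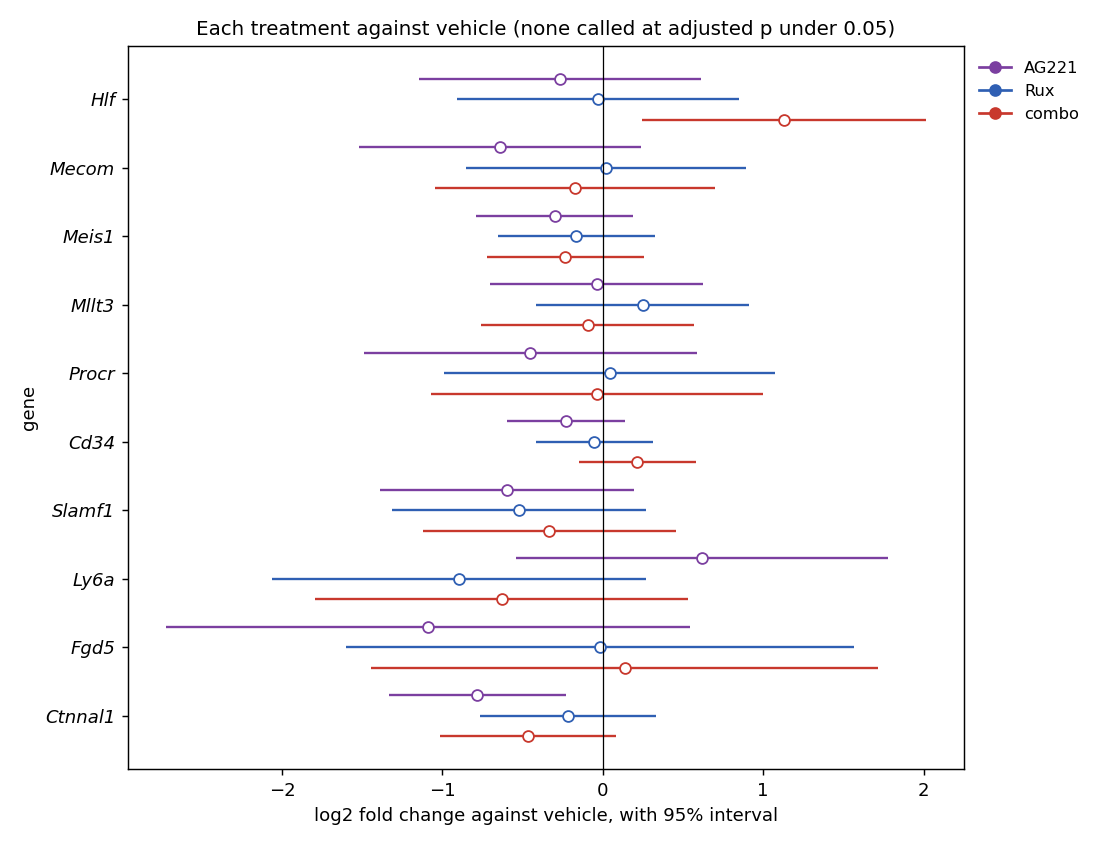
Log2 fold change of each member with AG221, Rux and combo against the same 3 vehicle libraries (x axis), with 95% intervals and 1 row per gene. None is called, and the interval of Hlf with combo and that of Ctnnal1 with AG221 do not include 0.

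The treatments were also compared with each other. AG221 and Rux libraries carry the same letter, and no member was called between them, beside 3.43% of all genes, with 2 at an unadjusted p under 0.05 (edgeR), beside 25.5%, and 1 called by DESeq2, beside 13.9%. Groups did not overlap for 4 members, beside 20.8%, and the 10 log2 fold changes ran from -1.07 to 1.52 with a median of -0.26. Ly6a was 2.86-fold higher in AG221 than in Rux, a log2 fold change of 1.52 ± 0.55 with an adjusted p of 0.119, and its AG221 libraries, from 109 to 148 CPM, lay above its Rux libraries, from 42.9 to 47.0 CPM. Ctnnal1 had a log2 fold change of -0.57 with an adjusted p of 0.185.

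Between combo and AG221, 1 member was called, beside 33.2% of all genes. An unadjusted p under 0.05 was found for 3, beside 44.4%, and 2 had groups that did not overlap, beside 44.6%. The 10 log2 fold changes ran from -1.25 to 1.40 with a median of 0.37. Hlf was 2.63-fold higher with combo, a log2 fold change of 1.40 ± 0.415 with an adjusted p of 0.021, and every combo library exceeded every AG221 library. It was not called without A8, A10 or B24, with adjusted p-values of 0.104, 0.0709 and 0.0871. Ly6a had a log2 fold change of -1.25 with an adjusted p of 0.0928, Cd34 one of 0.45 with an adjusted p of 0.0588, which ran from 0.32 without B26 to 0.61 without B25, where it was called, and Fgd5 one of 1.23 with an adjusted p of 0.232.

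Between combo and Rux, no member was called, beside 12.4% of all genes, with 1 at an unadjusted p under 0.05 (edgeR), beside 25.4%, and 1 called by DESeq2, beside 17%. Groups did not overlap for 2 members, beside 35.5%, and the 10 log2 fold changes ran from -0.34 to 1.16 with a median of 0.04. The member past the unadjusted threshold was Hlf, with a log2 fold change of 1.16 ± 0.412, an adjusted p of 0.0883 and no overlap. Ly6a had one of 0.27. Hlf was called in 3 of 11 other settings. The departure of combo from the sum of both single-agent changes was tested as an interaction and was called for no member, beside 8.42% of all genes, with an adjusted p of 0.114 for Hlf at 1.43 ± 0.579 and of 0.17 for Cd34 at 0.50 ± 0.241 on the log2 scale (1 member at an unadjusted p under 0.05 in edgeR, beside 32%, and 0 called by DESeq2, beside 21.7%). Over the 10 members this term ran from -0.35 to 1.43 with a median of 0.47. Combo alone of the groups in this term carries the letter B, so letter and interaction cannot be told apart.

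Slamf1, Cd48 and Flt3 encode the surface proteins CD150, CD48 and FLT3 that divide the LSK gate into stem cells and multipotent progenitors. Cd48, found on most progenitors but not on long-term stem cells, averaged 121 ± 32.6 CPM in WT and rose to 299.5 ± 42.5 CPM in vehicle (adjusted p 0.00279), the same direction as Slamf1. Flt3, the receptor of lymphoid-primed progenitors, averaged 572 ± 46.2 CPM in WT and fell to 144 ± 52.2 CPM in vehicle (adjusted p 0.0252). In combo, Flt3 was at 575, 131 and 405 CPM, with B25 apart from the others, and it was not called against WT (adjusted p 0.524) or vehicle (adjusted p 0.161). Kit was not called in vehicle (adjusted p 0.217) and was lower in AG221 than in WT, at 905 ± 143 beside 1361 ± 166 CPM (adjusted p 0.0134).

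**Figure D4:**
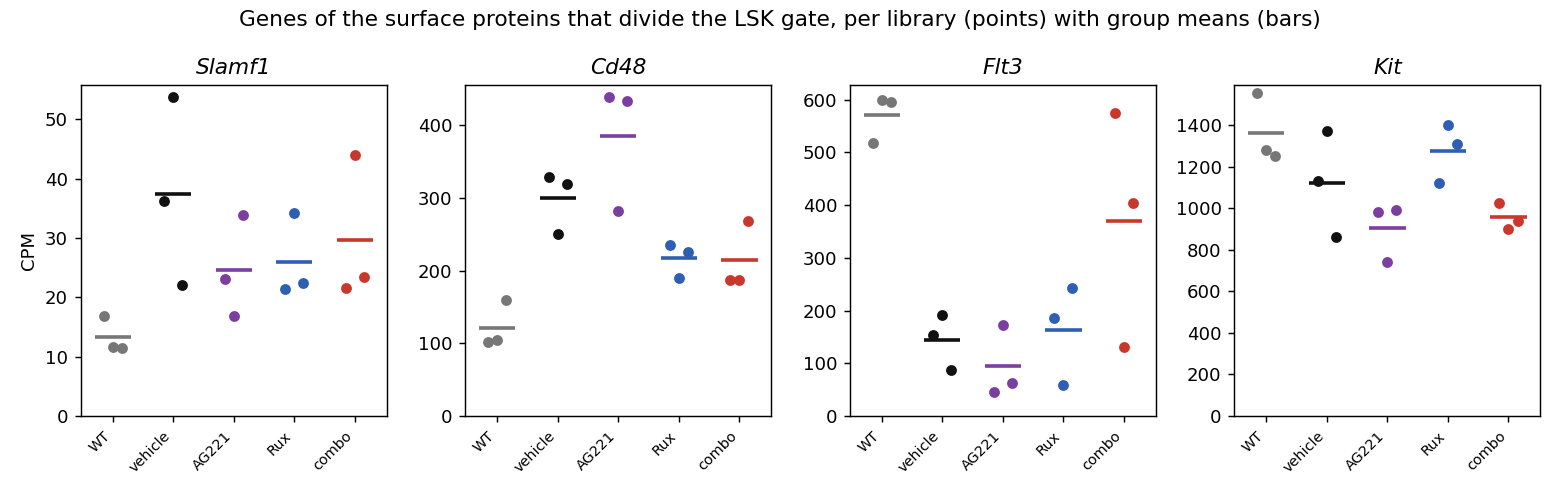
CPM on linear axes of Slamf1, Cd48, Flt3 and Kit, with 1 point per library and a bar at each group mean. Slamf1 and Cd48 are lowest in WT and Flt3 is highest there, and the 3 combo libraries spread from 131 to 575 CPM for Flt3.

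Both mutated loci are read here as whole genes. Idh2 averaged 399.9 CPM in WT and ran from 212 to 461 CPM in vehicle. AG221 A8 and A10 were at 55.1 and 65.9 CPM with A9 at 335 CPM, and Rux A16 was at 124 CPM with A14 and A17 at 480.2 and 425 CPM. Jak2 was at 32.6 ± 5.64 CPM in WT, 22 ± 1.99 CPM in vehicle (adjusted p 0.0201) and 46.9 ± 6.11 CPM in combo, where it was not called against WT (adjusted p 0.0779). Over the 2000 most variable genes, A9 had a mean correlation of 0.877 with vehicle, 0.867 with Rux and 0.853 with the other AG221 libraries. A16 had one of 0.821 with vehicle, 0.823 with AG221 and 0.826 with the other Rux libraries. A higher mean with vehicle than with the own group was not particular to A9, since Rux A14 had 0.884 and 0.863 and Rux A17 had 0.914 and 0.861. The own-group means of A14 and A17 include A16. A14 and A17 correlated at 0.899 with each other, above the mean of A14 with vehicle and below that of A17. Labels were kept as given. With A9 and A16 both left out, 5 members were called between AG221 and WT, beside 57.9% of all genes. Between Rux and WT 3 were called, beside 28.3% of all genes.

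Other genes of the stem cell programme were taken from 3 lists. Of 24 further transcription factors, vehicle had 3 higher and 3 lower than WT, 6 of 24 called beside 33.3% of all genes, with a median log2 fold change of -0.28 beside -0.09 over all genes. Lmo2, a bridging protein of the stem cell factor complex, fell from 596 ± 108 to 205 ± 60.9 CPM (adjusted p 0.01), and Sox18, an endothelial and stem cell factor, was at 2.43 ± 0.568 CPM in WT and around the floor in vehicle, at 0.0808 ± 0.0443 CPM. Zbtb16 (PLZF) rose from 12.6 ± 2.39 to 42.8 ± 7.87 CPM (adjusted p 0.000232) and Gfi1b from 64.7 ± 7.27 to 125 ± 7.94 CPM (adjusted p 0.0272). In combo, beside 3.25% of all genes called, 1 was higher (Zbtb16) and 1 lower (Prdm16, at 12.4 ± 3.25 beside 32.4 ± 5.18 CPM in WT, adjusted p 0.0378), and Lmo2 was at 677 ± 137 CPM, higher than in vehicle (adjusted p 0.00839).

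Of 24 stem cell surface proteins and receptors, 3 were higher and 2 lower in vehicle than in WT, 5 of 24 beside the same 33.3%. Itga2b (CD41), also a megakaryocyte marker, rose from 157 ± 22.9 to 592 ± 38 CPM (adjusted p 0.00107) and Jam3 fell from 8.51 ± 0.359 to 2.58 ± 1.09 CPM (adjusted p 0.00902). In combo 4 were higher and 2 lower than in WT, 6 of 24 beside 3.25% of all genes, and Itga2b, at 458 ± 125 CPM, was among the former (adjusted p 0.0137). Of 30 other stem-cell-associated genes, 3 were higher and 9 lower in vehicle, beside 33.3% of all genes called and 17.9% called lower, with a median log2 fold change of -0.78. Among them Pde1b fell from 11.9 ± 2.61 to 2.51 ± 1.74 CPM (adjusted p 0.00405), and Vwf, the clotting factor of platelet-biased stem cells, rose from 60.7 ± 17.1 to 124 ± 15.7 CPM (adjusted p 0.0167). In combo 3 of these 30 were lower than in WT and none higher, beside 3.25% of all genes called.

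The neighbouring progenitor states were read the same way. Of 20 lymphoid-primed progenitor genes, 3 were higher and 7 lower in vehicle than in WT, beside 33.3% of all genes called. None was called in combo by edgeR, which called 3.25% of all genes, and 1 by DESeq2, which called 11%. Sox4 averaged 44.2 ± 28.7 CPM in WT, 7.17 ± 2.85 CPM in vehicle (adjusted p 0.0151) and 80.1 ± 54.1 CPM in combo, where it was not called against WT (adjusted p 0.435). Of 16 myeloid-primed genes, 12 were higher and none lower in vehicle, in AG221 and in Rux, and 4 were higher in combo, beside 33.3%, 50.7%, 32.3% and 3.25% of all genes called in either direction. Nkg7, a granule protein, was at 174 ± 36.1 CPM in WT, 426 ± 25 CPM in vehicle (adjusted p 0.000229) and 384 ± 20.3 CPM in combo (adjusted p 0.00189), and Cst7, a protease inhibitor of granulocytic cells, at 40.4 ± 6.27, 146 ± 22.6 and 72 ± 16.2 CPM (adjusted p 0.000223 and 0.0494 against WT). The counts for combo moved with the fit and with single libraries. With 1 library left out they were between 0 and 4 in each list, beside 0.46% to 2.22% of all genes called.

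**Figure D5:**
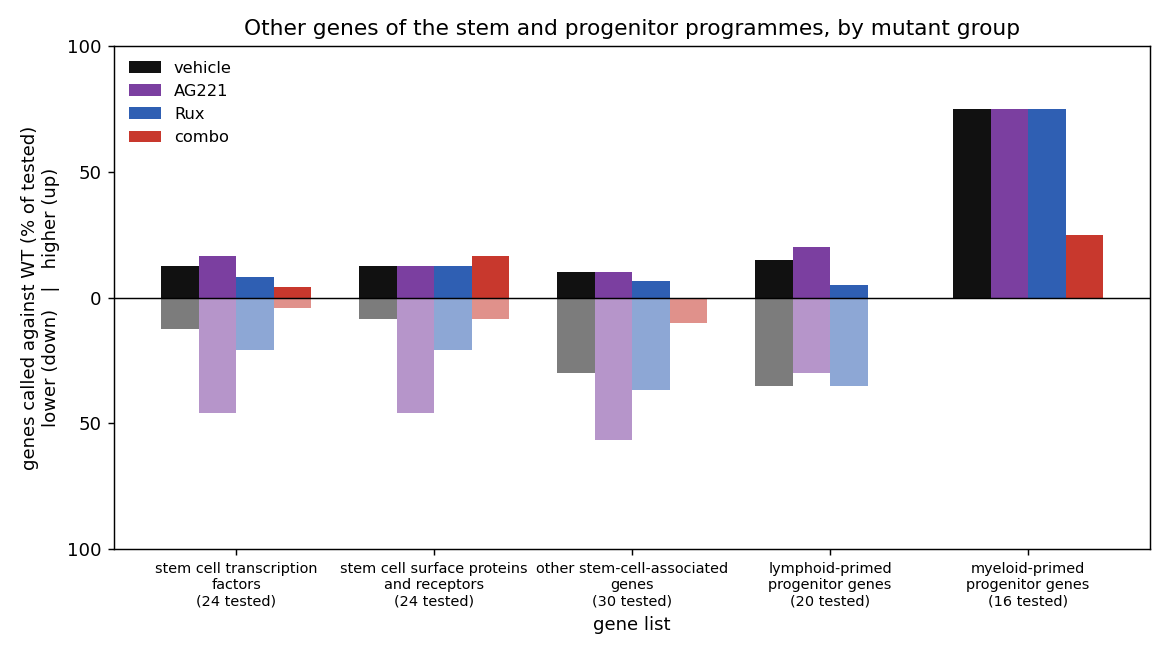
Share of the tested genes of 5 lists called higher (upward, full colour) or lower (downward, pale) against WT at an adjusted p under 0.05, in percent, for the 4 mutant groups. Myeloid-primed genes reach 12 of 16 higher in vehicle, AG221 and Rux and 4 of 16 in combo, and the stem cell lists hold both directions except the other stem-cell-associated genes in combo, with 3 lower and 0 higher.

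Marker lists of other cell types were counted in vehicle against WT, beside 33.3% of all genes called. Of the 12 erythroid markers 5 were higher, and of the 10 megakaryocyte and the 10 mast cell and basophil markers tested, 6 each. Of the 10 neutrophil markers 3 were higher, of the 12 monocyte and dendritic cell markers 4 were higher and 1 lower, of 8 T and NK cell markers 1 was higher, and of 7 stromal markers 1 was higher and 1 lower. Of the 14 B and plasma cell markers 9 were lower. Fgd5, Mecom, Meis1, Procr and Cd34 are also expressed in endothelial cells, whose defining cadherin Cdh5 averaged 0.249 CPM in WT and at most 0.0847 CPM in a mutant group, values around the floor. All 18 endothelial markers together summed to between 526 and 653 CPM in WT and between 507 and 657 CPM in vehicle. The sums were 413 to 483 CPM in AG221, 562 to 597 CPM in Rux and 443 to 544 CPM in combo. Of 14 endothelial markers tested, 1 was higher and 3 were lower in vehicle than in WT. The lists share genes, so their counts are not independent. The higher T and NK cell marker was Nkg7, also listed as myeloid-primed. The higher endothelial marker was Vwf, also listed among the other stem-cell-associated genes and the megakaryocyte markers. Sox18, which was lower, is in both the endothelial and the transcription factor list. Whether endothelial cells contributed to the member levels was not tested. Of 20 proliferation genes, 15 were higher in vehicle and 6 in combo, and none lower, beside 33.3% and 3.25% of all genes called.

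The genes whose log2 CPM followed a member most closely across the 15 libraries are given as a description, since the libraries share groups. For Hlf these were Cobll1, Gkap1 and Gpr45 with Pearson r from 0.979 to 0.967, and for Procr Tceal1, Prex2 and Maged1 with r from 0.961 to 0.955. Fgd5 was followed by Gulp1, Unc45b and Pabpc4l (0.963 to 0.954) and Mecom by Trim30b, Slc27a6 and Maged1 (0.952 to 0.945), so that Maged1 was among the nearest of both Procr and Mecom. Meis1 was nearest to Angpt1 (0.915), Cd34 to Pogz, Gm20692 and Gm37593 (0.925 to 0.904), and Slamf1 to Abca4, Pttg1ip and Ecm1 (0.904 to 0.893). Ly6a was nearest to Icam1, Gbp2 and Apol7e (0.885 to 0.878), Ctnnal1 to Galnt4, Fchsd1 and Ss18 (0.916 to 0.872), and Mllt3 to Slc24a5, Iqcb1 and Mmrn1 (0.86 to 0.824).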

How the data were processed

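RNA was sequenced from 15 libraries of sorted mouse LSK cells after SMARTer amplification, as paired-end reads. Per the labels and methods, the authors aligned reads to mm10 with STAR 2.5.1a and an Ensembl gene model, and deposited raw gene counts with no normalization, while their own tests used DESeq2 1.6.3. Their second table, counts divided by size factors, was not used. The Ensembl release and the strand setting are not given in the sources used here. Symbols were found for 44585 of 45232 gene IDs.

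Groups came from the labels. Counts were fitted with edgeR 4.0.16 (R 4.3.3) by the quasi-likelihood test on all 15 libraries and 5 groups with TMM factors and the default expression filter, giving 17834 tested genes. Calls were made at a Benjamini-Hochberg adjusted p under 0.05 over all tested genes. CPM values use TMM-scaled library sizes, and log2 CPM values use a prior count of 2, which does not enter the fitted fold changes. DESeq2 1.42.0, limma-voom (limma 3.58.1), other normalizations and filters, GC content offsets, the compared groups alone and the loss of each library were tried as alternatives. The model code was tested on simulated data.

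The members and gene lists were chosen with earlier results of these data known. Each comparison gives the members by value or by the range over all 10, and 59 of their 110 fold changes are printed singly, a choice made after values were seen. From the lists, Kit, Flt3, Cd48, Jak2, Idh2 and Xist are named, and up to 2 genes per list and direction with the smallest p among those called in vehicle or combo against WT or combo against vehicle. Sox18, Ddx3y and Cdh5, where they fall outside this rule, were chosen after their values were seen. Counts over lists were added as alternatives after seeing the data. Precision is limited by 3 libraries per group and, for Fgd5, by counts between 13 and 580. Replicate pairs differed by more than sampling noise. Promoter letters are those of RefSeq in GRCm38.p6. The 3 genes most alike in level are named for each member, except for Meis1, where 1 is named and the others are not reported here.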

Additional observations from a re-analysis of the deposited data

How the results depend on the processing

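Per the methods, mice were matched before treatment on blood values, donor chimerism and body weight, and randomized within the matched sets. The labels do not give these sets and the groups share no replicate numbers, so no paired analysis was possible. Over the 59 member fold changes printed singly, 574 of 626 values under other settings kept their direction and their side of the threshold, 4 lost and 45 gained a call and 3 turned. With 1 library left out these numbers were 327 of 366, 20, 6 and 13. No called member value turned. Over all 110 fold changes, 31 of 1180 and 59 of 720 turned, none of them called. The cause was not tested for any change.

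The number of members called in Rux against WT (2) was 4 with DESeq2, without a filter and with at least 10 counts in every library, where 38.2%, 14.5% and 32.9% of all genes were called, and 7 with the compared groups alone (37.4%). In combo against WT (0) it was 3 with DESeq2 (11%), 1 with limma-voom (6.23%) and 4 with the compared groups alone (10.6%). In AG221 against vehicle (0) it was 1 with DESeq2 (13.8%) and 1 with AG221 A9 and Rux A16 both left out (29.1%). In combo against vehicle (0) it was 1 with DESeq2, without a filter and with limma-voom (17.4%, 5.38% and 13.5%), and in AG221 against Rux (0) it was 1 with DESeq2 (13.9%). In combo against AG221 (1) it was 2 with DESeq2, upper quartile normalization, no filter and the compared groups alone (39.1%, 39.4%, 13% and 24.9%), and in combo against Rux (0) it was 1 with DESeq2, no filter and the compared groups alone (17%, 5.14% and 12%). With 1 library left out, counts against WT ran from 1 to 5 in vehicle, beside 10.5% to 30.9% of all genes called. Those in AG221 ran from 4 to 6 (33.9% to 56.4%) and those in Rux from 1 to 2 (10.6% to 27.1%). Combo stayed at 0 (0.46% to 2.22%). Against vehicle the counts ran from 0 to 1 in AG221 (0% to 24.4%) and in combo (5.26% to 10.3%). Rux stayed at 0 against vehicle (0% to 0.0471%). Combo against AG221 ran from 0 to 2 (15.7% to 42.6%). The counts stayed at 0 in AG221 against Rux (0% to 25.1%), combo against Rux (5.99% to 9.92%) and the interaction (0.23% to 31.8%). Leaving out 1 library keeps the fit over all groups, and alternatives with the compared groups alone estimate the spread from 6 libraries.

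In combo against WT, the main fit called 3.25% of all genes, DESeq2 11%, GC content offsets 4.38% and limma-voom 6.23%. The share was 2.95% with RLE, 3.59% with upper quartile normalization, 2.26% without a filter and 2.15% with at least 10 counts in every library. It was 10.6% with the compared groups alone and 0.46% to 2.22% with a library left out. The further transcription factors called (2) were 7 with DESeq2, 5 with GC content offsets, 5 with limma-voom and 9 with the compared groups alone. They were 1 with at least 10 counts in every library and 0 to 1 with a library left out. Surface proteins and receptors (6) were 12 with the compared groups alone and 1 to 4 with a library left out. Other stem-cell-associated genes (3) were 7 with DESeq2, 5 with upper quartile normalization, 6 without a filter, 7 with limma-voom, 12 with the compared groups alone and 0 to 2 with a library left out. Lymphoid-primed genes (0) were 1 with DESeq2, without a filter and with GC content offsets, 2 with limma-voom and 0 to 1 with a library left out. Myeloid-primed genes (4) were 7 with DESeq2, 2 with RLE and with upper quartile normalization, 2 with at least 10 counts in every library and 1 to 4 with a library left out. In vehicle against WT the counts with a library left out ran from 3 to 8 (6), 5 to 8 (5), 4 to 19 (12), 1 to 8 (10) and 9 to 12 (12) in the same order of lists. The share of all genes called in those fits ran from 10.5% to 30.9%.

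Log2 fold changes that turned are given with their range when 1 library was left out. In vehicle against WT, Ly6a was -0.37 with limma-voom and ran from -0.72 (without A1) to 0.76 (without A4), and Meis1 was 0.040 with GC content offsets and ran from -0.26 (without A1) to 0.13 (without A4). In combo against WT, Cd34 ran from -0.26 (without B26) to 0.029 (without B25). Against vehicle, Fgd5 with AG221 ran from -2.03 (without A9) to 0.30 (without A3), and Ly6a with Rux from -1.41 (without A4) to 0.073 (without A1). In combo against vehicle, Procr was 0.37 with limma-voom and ran from -0.51 (without A4) to 0.68 (without A3), Fgd5 ran from -0.37 (without B25) to 1.53 (without A3), and Ly6a from -1.14 (without A4) to 0.34 (without A1).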
